A study of Homo sapiens with 6 samples.

Results

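The proteins of the mitochondrial ribosome were examined in xenograft tumours of HT-29, an established human colorectal cancer cell line grown as a tumour in a host animal. They were taken as every gene whose symbol begins with MRPL or MRPS and a number. Of 99 such symbols among 29236 in the table, 19 pseudogenes and 2 antisense or divergent transcripts (MRPL23-AS1 and MRPS30-DT) were left out, which left 78 genes, 49 named MRPL and 29 named MRPS. The rule uses names only and no measured value. The shock wave group (labelled ESV) had received extracorporeal shock waves of 60 mJ, pressure pulses applied from outside the body, and held 3 samples. The control group was untreated and also held 3 samples. Both were labelled wild type and were profiled by RNA sequencing at day 15, under a single batch label. The title of the series places the comparison in a study of tumour proliferation and growth, and the question asked here is whether the RNA of these genes differed between shock wave and control tumours.

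Mitochondria keep a ribosome of their own, which makes the few proteins encoded by mitochondrial DNA, all of them parts of the respiratory chain or ATP synthase. Its RNAs come from mitochondrial DNA, while every one of its proteins is encoded in the nucleus, made in the cytosol and imported. The proteins carry the letter L or S for the large subunit, which forms the peptide bond, or the small subunit, which reads the message. Some descend from ribosomal proteins of bacteria and others occur in mitochondria only.

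By structure the 78 genes fall into 51 of the large subunit, 26 of the small subunit and MRPS36, which has since been assigned to the alpha-ketoglutarate dehydrogenase complex. In the large subunit 29 have a bacterial counterpart and 22 are specific to mitochondria. The 22 include MRPS30 and MRPS18A, which sit in the large subunit despite their names. In the small subunit 16 have a bacterial counterpart and 10 do not. The genes lie on 21 chromosomes and the table lists 441 of their transcripts.

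The recovered library totals were 55197000, 55233000 and 58539500 reads in shock wave tumours, and 52170500, 55489500 and 48298500 reads in control tumours. Between 160138 and 254553 of these reads lay on the 78 genes. The 10 marker genes of colonic epithelium, the labelled cell type, together reached 5750 to 8008 FPKM in shock wave tumours. In control tumours they reached 5266 to 6638 FPKM. Keratins made up most of these sums, with means over the 6 libraries of 2379 FPKM for KRT8 and 1465 FPKM for KRT19. CDX1 and CDX2 of the same list were far lower, at means of 17.7 and 3.9 FPKM. FPKM are fragments per kilobase of transcript per 1000000 reads, so levels can be compared between genes. Of the other cell types, the 4 fibroblast markers listed in the table, of 6, summed to 3.09 to 12.9 FPKM in shock wave tumours and 8.02 to 25.0 FPKM in control tumours. Markers of endothelium (4 of 6 listed), erythroid cells (4 of 6) and lymphocytes (2 of 6) stayed at or under 0.856 FPKM in total in each library. Those of pericytes and smooth muscle (5 of 6) summed to 2.37 to 4.47 FPKM in shock wave tumours and 4.16 to 5.42 FPKM in control tumours, and those of skeletal muscle (5 of 6) to 3.78 to 8.80 FPKM in shock wave tumours and 3.80 to 4.25 FPKM in control tumours. The macrophage list (4 of 6) reached 1981 to 2083 FPKM in shock wave tumours and 1845 to 2082 FPKM in control tumours, nearly all of it LYZ, while CD163 and MRC1 had no row used here. Such cells in a xenograft come largely from the host animal, while the table lists human transcripts. These sums therefore do not measure cells of the host, and low sums do not show that few were present. Host reads that fit human transcripts may also have added to them. The part of other cell types in the results below was not tested. Because these are bulk samples, fewer cells of a type and less RNA per cell cannot be told apart. Whether each sample is a tumour of its own animal is not stated, and the p-values below reflect the sample-to-sample spread alone, which may be technical.

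Sequence upstream of the genes was examined because nuclear genes of mitochondrial proteins are known for promoters that bind ETS factors (the GABP family among them), YY1 and NRF1. RefSeq windows of 300 bases (250 before to 50 after a start) on GRCh38.p14 were found for 69 of the 78 genes, as 85 windows. The ETS core CCGGAAG, searched on both strands, occurred in windows of 30 of the 69 genes (43.5%), and in those of 23.2% of the 9373 tested genes with a window. The YY1 motif AAGATGGC occurred in 21 of the 69 genes (30.4%), against 6.84% of the same 9373 tested genes. The NRF1 motif (GCGCA, any base, GCGC) occurred in 9 of the 69 genes (13%), against 13.7%. Counted by window, the shares were 38.8% of the members' windows against 10.3% of all 35116 windows for the ETS core, 27.1% against 2.89% for YY1 and 11.8% against 5.78% for NRF1. None of these motifs contains another, and a match of letters does not show that a factor binds there. Members with the ETS core had a median log2 change (shock wave minus control) of 0.29, and those without it 0.21. For the YY1 motif the medians were 0.27 with it and 0.25 without. The 120 bases before the RefSeq start are shown for 3 genes whose RNA is described in detail below, as examples with 1 match, 2 matches and no match, with the ETS core in capitals. In the same stretch of MRPL14, MRPS25, MRPL38 and MRPS5, not shown, the ETS core had no match either. MRPL18 lies on the plus strand at chr6:159790347-159790466, MRPL27 on the minus strand at chr17:50373185-50373304 and MRPL12 on the plus strand at chr17:81703247-81703366, each read 5′ to 3′ along its gene.
MRPL18: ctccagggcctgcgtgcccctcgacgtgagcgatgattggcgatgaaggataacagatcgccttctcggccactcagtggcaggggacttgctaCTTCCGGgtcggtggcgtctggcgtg
MRPL27: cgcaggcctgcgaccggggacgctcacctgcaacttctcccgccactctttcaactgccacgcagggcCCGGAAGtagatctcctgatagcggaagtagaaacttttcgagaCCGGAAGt
MRPL12: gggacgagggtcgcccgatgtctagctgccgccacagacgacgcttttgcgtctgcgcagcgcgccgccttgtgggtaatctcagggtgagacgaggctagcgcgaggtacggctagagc

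For the other motifs, also searched on both strands, the shares by gene and by window could differ in direction. The backgrounds are unlike sets: tested genes with a window, and all windows whether or not their gene was tested. GGGCGG, the SP1 box, was in 60.9% of the members and 77.3% of tested genes with a window, but in 60% of the members' windows and 45% of all windows. CCAAT was in 33.3% against 43.2% by gene and in 32.9% against 34.6% by window. TATAAA was in 4.35% against 8.16% by gene and in 3.53% against 11.5% by window. The E-box CACGTG was in 13% against 12.8% by gene and in 10.6% against 7.26% by window. The CRE element TGACGTCA was in 1.45% against 3.83% by gene and in 1.18% against 1.85% by window. Genes of mitochondrial ribosomal proteins also often started back to back with another gene. A neighbour on the opposite strand started within 1000 bases for 18 of the 78 (23.1%), against 11.3% of 11406 tested protein-coding genes. MRPL46 and MRPS11 are each other's neighbour, with 34 bases between their starts. Among the 17 such neighbours that were tested, 8 had a positive log2 change and the median was 0.00. The median of the 17 members beside them was 0.29.

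All 78 genes were expressed, at 1 FPKM or more in each of the 6 libraries, and all entered the test. Their mean levels over the 6 libraries ran from 3.01 to 108.5 FPKM with a median of 30.7 FPKM, against a median of 9.18 FPKM over the 13448 genes tested. MRPL12, which also binds the mitochondrial RNA polymerase, had the highest mean level. It was followed by MRPL20, MRPL13 and MRPL37 of the large subunit and by MRPS12, the protein at the decoding centre of the small subunit. MRPL20 had 114, 97.3 and 146 FPKM in shock wave tumours, against 89.5, 101 and 83.1 FPKM in control tumours. MRPL13 had 90.3, 110 and 111 FPKM in shock wave tumours, against 99.3, 94.9 and 89.3 FPKM in control tumours. Both groups overlapped for these genes. MRPL37 stood at 91.1, 85.8 and 94.1 FPKM in shock wave tumours and at 76.8, 90.6 and 56.4 FPKM in control tumours, again with overlap. MRPS12 stood at 88.3, 70.2 and 109 FPKM in shock wave tumours and at 69.7, 69.1 and 69.5 FPKM in control tumours, so that the second shock wave library lay just above the controls. The order of these 5 genes is not firm, since the values of each neighbouring pair overlap.

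At the low end were MRPL53, MRPS25 and MRPS16. MRPL53, a protein specific to the mitochondrial large subunit, had 3.73, 2.58 and 4.12 FPKM in shock wave tumours, against 3.18, 2.16 and 2.32 FPKM in control tumours. MRPS16, the counterpart of bacterial S16, had 4.43, 3.09 and 4.88 FPKM in shock wave tumours, against 4.61, 2.95 and 4.27 FPKM in control tumours. Both sets of values overlapped between groups.

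Most of the genes were somewhat higher in shock wave tumours, by small amounts that did not pass the test. The log2 change, on the log2(FPKM + 1) scale, was positive for 70 of 78 genes and negative for 8, while it was positive for 48.4% of all genes tested. Its median was 0.25 over the 78 genes and -0.01 over all genes tested. It ran from -0.81 for MRPL49 to 0.77 for MRPS10, exceeded 0.5 in 4 genes and lay within 0.1 of 0 in 9. With limma, none of the 78 genes had a Benjamini-Hochberg adjusted p under 0.05 in either direction, and 0% of the 13448 genes tested did. The smallest adjusted p among the 78 was 0.648 in limma, and limma voom on recovered reads also called 0 of them. At an unadjusted p under 0.05 there were 11 genes higher (background 3.17%) and 0 lower (background 3.76%). That count of 11 was 23 without shock wave 2, where 6.74% of all genes tested met the condition. It was 6 without shock wave 1 (2.42% of all) and 6 without shock wave 3 (2.69%). Without control 1 it was 1 (2.01%), without control 2 it was 5 (2.07%) and without control 3 it was 3 (2.28%).

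**Figure D1:**
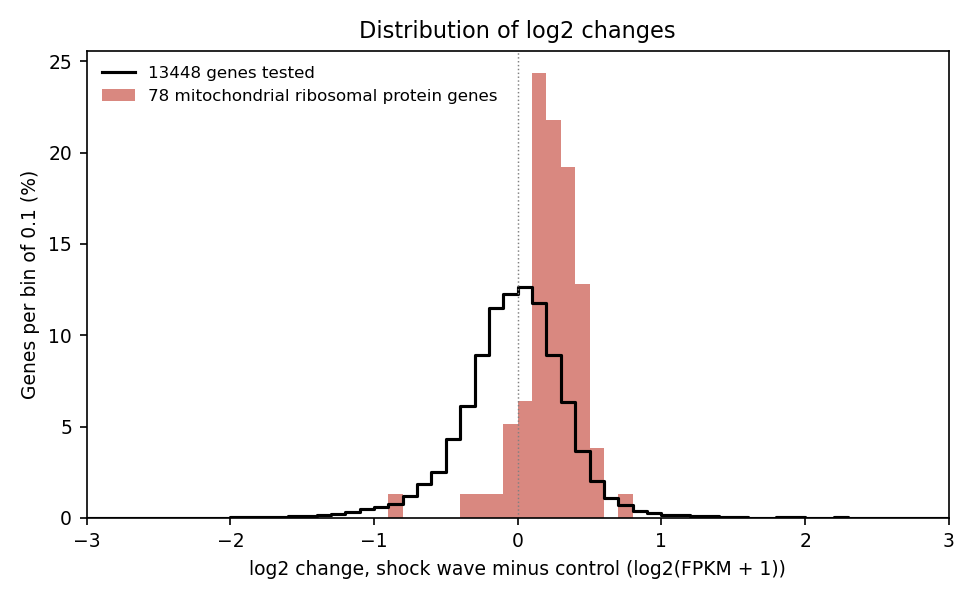
Distribution of log2 changes, shock wave minus control, on the log2(FPKM + 1) scale (x axis), as the percentage of genes per bin of 0.1 (y axis). The filled bars are the 78 mitochondrial ribosomal protein genes, with a median of 0.25, and the line is all 13448 genes tested, with a median of -0.01; changes beyond 3 in size are not drawn.

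In 19 of the 78 genes every shock wave library lay above every control library, and in 1, MRPS30, every shock wave library lay below. Over all genes tested, 7.75% had groups apart with shock wave higher and 8.69% with shock wave lower. Without shock wave 2 the count of 19 became 47, where 18.6% of all genes tested met the condition. Without control 2 it became 29, where 12.4% did.

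The summed level of the 78 genes was 2902, 2628 and 3447 FPKM in shock wave tumours, against 2455, 2530 and 2507 FPKM in control tumours. All 3 shock wave sums lay above the control sums, and they were further apart from each other (mean 2992 ± 417, SD, n = 3) than the control sums (mean 2497 ± 38.4, SD, n = 3). As a share of the FPKM of all annotated transcripts, the genes took 0.634, 0.611 and 0.668% in shock wave tumours, against 0.577, 0.587 and 0.576% in control tumours.

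The difference was uneven between libraries. The median gene stood 0.23, 0.06 and 0.45 above its control mean (log2) in shock wave 1, 2 and 3, against -0.01, 0.00 and 0.00 in control 1, 2 and 3. Shock wave 3 lay above all controls for 63 of the 78 genes, shock wave 1 for 51 and shock wave 2 for 24. Over all genes tested those shares were 32.2% for shock wave 3, 33.0% for shock wave 1 and 24.6% for shock wave 2. Shock wave 3 was the highest of the 6 libraries for 59 of the 78 genes, and for 25.0% of all genes tested. Shock wave 2 thus hardly stood out from the controls. Without shock wave 3, 64 of the 78 genes kept a positive log2 change, the median was 0.13 (0.01 over all genes tested), and 21 had groups apart with shock wave higher (background 12.2%).

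**Figure D2:**
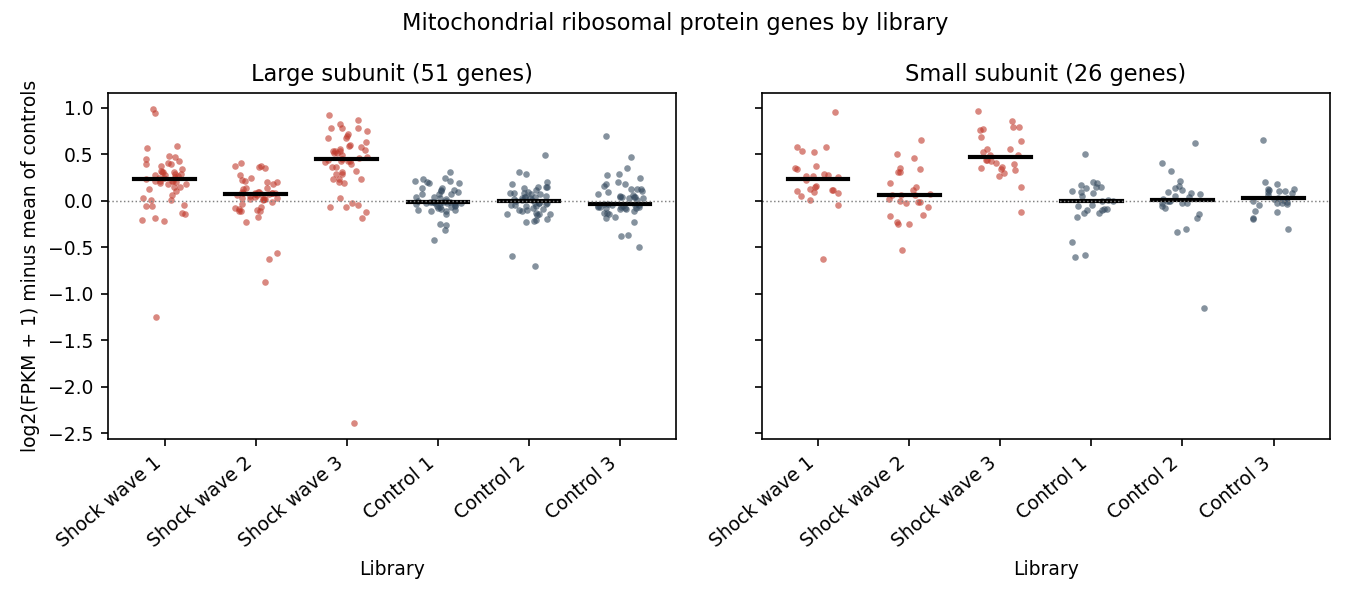
Each point is a gene, plotted as log2(FPKM + 1) minus its mean over the 3 control libraries (y axis), by library (x axis), for the 51 large subunit genes and the 26 small subunit genes, without MRPS36; black bars are medians. The medians are highest in shock wave 3 (0.45 and 0.46) and close to the controls in shock wave 2 (0.07 and 0.06).

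Transcript length moved with the same libraries. Across all genes tested, the log2 level relative to the controls changed by -0.114, -0.027 and -0.241 per doubling of transcript length in shock wave 1, 2 and 3, against 0.004, 0.005 and -0.009 in control 1, 2 and 3. Short transcripts were thus relatively high in shock wave 3 and 1, and the genes of mitochondrial ribosomal proteins are short, with a median of 1276 bases against 2256 over all genes tested. With the length trend removed per library, 61 of the 78 genes had a positive log2 change, the median was 0.13 (0.01 over all genes tested), and 11 had groups apart with shock wave higher (background 6.70% in that fit). Within the 78 genes, the 39 at or under the median length (median 1015 bases) had 36 positive log2 changes with a median of 0.26. The 39 longer ones (median 1705 bases) had 34 with a median of 0.19. With each library scaled to the same summed FPKM, the median was 0.14 over the 78 genes and -0.11 over all genes tested. The part of RNA quality or library preparation in the pattern was not tested.

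Both subunits had mostly positive log2 changes. In the large subunit 44 of 51 genes had a positive log2 change with a median of 0.26, and 12 had groups apart with shock wave higher (background 7.75%). Its summed level was 2093, 1899 and 2454 FPKM in shock wave tumours, against 1784, 1802 and 1799 FPKM in control tumours, without overlap. In the small subunit 25 of 26 had a positive log2 change with a median of 0.21, and 6 had groups apart with shock wave higher (background 7.75%). Its summed level was 795, 713 and 976 FPKM in shock wave tumours, against 658, 715 and 697 FPKM in control tumours, where shock wave 2 fell among the controls. Genes with a bacterial counterpart had medians of 0.26 (large) and 0.21 (small), and those specific to mitochondria 0.26 (large) and 0.23 (small).

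Among the large subunit proteins whose groups did not overlap, MRPL18 had the smallest p. MRPL18, which in human cells also helps to import 5S ribosomal RNA into mitochondria, lies on the plus strand at chr6:159789812-159798436 (hg38). It had 36.1, 32.4 and 34.4 FPKM in shock wave tumours, against 28.6, 21.7 and 22.7 FPKM in control tumours. The shock wave libraries were close together, and control 1 was the highest control. The log2 change was 0.49 with a standard error of 0.14 (limma p 0.0122, adjusted p 0.648).

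MRPL14, the counterpart of bacterial L14 at the face that meets the small subunit, lies at chr6:44113454-44127457 on the minus strand. It had 67.2, 70.0 and 99.7 FPKM in shock wave tumours, against 51.6, 53.0 and 58.1 FPKM in control tumours. Shock wave 3 stood apart from the other shock wave libraries, all of which lay above the controls. The log2 change was 0.51 ± 0.17 (SE; limma p 0.0221, adjusted p 0.648).

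MRPL12, the gene with the highest level, lies at chr17:81703357-81707526 on the plus strand. It had 121, 104 and 151 FPKM in shock wave tumours, against 90.0, 96.9 and 88.2 FPKM in control tumours. The lowest shock wave value, in shock wave 2, was close to the highest control. The log2 change was 0.43 ± 0.16 (SE; limma p 0.0314, adjusted p 0.648).

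MRPL27, the counterpart of the bacterial protein that reaches towards the peptidyl transferase centre, lies at chr17:50367857-50373214 on the minus strand. It had 39.7, 34.6 and 52.5 FPKM in shock wave tumours, against 29.5, 31.7 and 28.9 FPKM in control tumours. The order of the shock wave libraries was that of MRPL12, with shock wave 3 highest and shock wave 2 lowest. The log2 change was 0.46 ± 0.17 (SE; limma p 0.0329, adjusted p 0.648).

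MRPL38, which is specific to mitochondria, lies at chr17:75898643-75905413 on the minus strand. It had 59.0, 42.5 and 52.6 FPKM in shock wave tumours, against 41.0, 38.1 and 37.7 FPKM in control tumours. Here shock wave 1, not shock wave 3, was highest. The log2 change was 0.38 ± 0.15 (SE; limma p 0.0389, adjusted p 0.648). MRPL21, the counterpart of bacterial L21, lies at chr11:68891276-68903835 on the minus strand and had 71.6, 54.5 and 82.2 FPKM in shock wave tumours, against 49.9, 52.5 and 51.3 FPKM in control tumours. Its second shock wave library exceeded the highest control by a small margin, and the log2 change was 0.41 ± 0.17 (SE; limma p 0.0437, adjusted p 0.648).

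In the small subunit, MRPS5, the counterpart of bacterial S5 near the entry of the message, lies at chr2:95087207-95122000 on the minus strand. It had 15.7, 23.4 and 29.2 FPKM in shock wave tumours, against 13.9, 15.6 and 14.2 FPKM in control tumours. Shock wave 1 was level with the highest control and the other shock wave libraries were well above. The log2 change was 0.57 ± 0.23 (SE; limma p 0.0406, adjusted p 0.648).

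MRPS25, specific to mitochondria, lies at chr3:15042460-15065335 on the minus strand and had 4.24, 4.64 and 4.76 FPKM in shock wave tumours, against 3.11, 2.94 and 3.29 FPKM in control tumours. The groups did not overlap, with a log2 change of 0.43 ± 0.16 (SE; limma p 0.0297, adjusted p 0.648). Its direction differed with the measure and with the transcripts summed. The leading transcript was ENST00000253686 in all control libraries, ENST00000496484 in shock wave 1 and 2, and ENST00000447299 in shock wave 3. The protein-coding transcript ENST00000253686 of 4586 bases had 1.22, 1.03 and 0.890 FPKM in shock wave tumours, against 1.74, 2.11 and 2.57 FPKM in control tumours. ENST00000496484 of 823 bases, which is annotated without a coding sequence, had 1.96, 2.29 and 0.955 FPKM in shock wave tumours, against 0.466, 0.832 and 0.176 FPKM in control tumours. A read counts for more FPKM on a short transcript than on a long one, and recovered reads of MRPS25 were 435, 437 and 421 in shock wave tumours, against 471, 575 and 593 in control tumours. On recovered reads MRPS25 had a log2 change of -0.46, and over protein-coding transcripts only one of -0.38.

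The gene with groups apart in the other direction was MRPS30, a large subunit protein specific to mitochondria, at chr5:44808925-44820428 on the plus strand. It had 33.4, 36.4 and 37.3 FPKM in shock wave tumours, against 40.1, 37.6 and 39.9 FPKM in control tumours. The gap between the groups was narrow, and the log2 change was -0.13 ± 0.11 (SE; limma p 0.280, adjusted p 0.688).

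**Figure D3:**
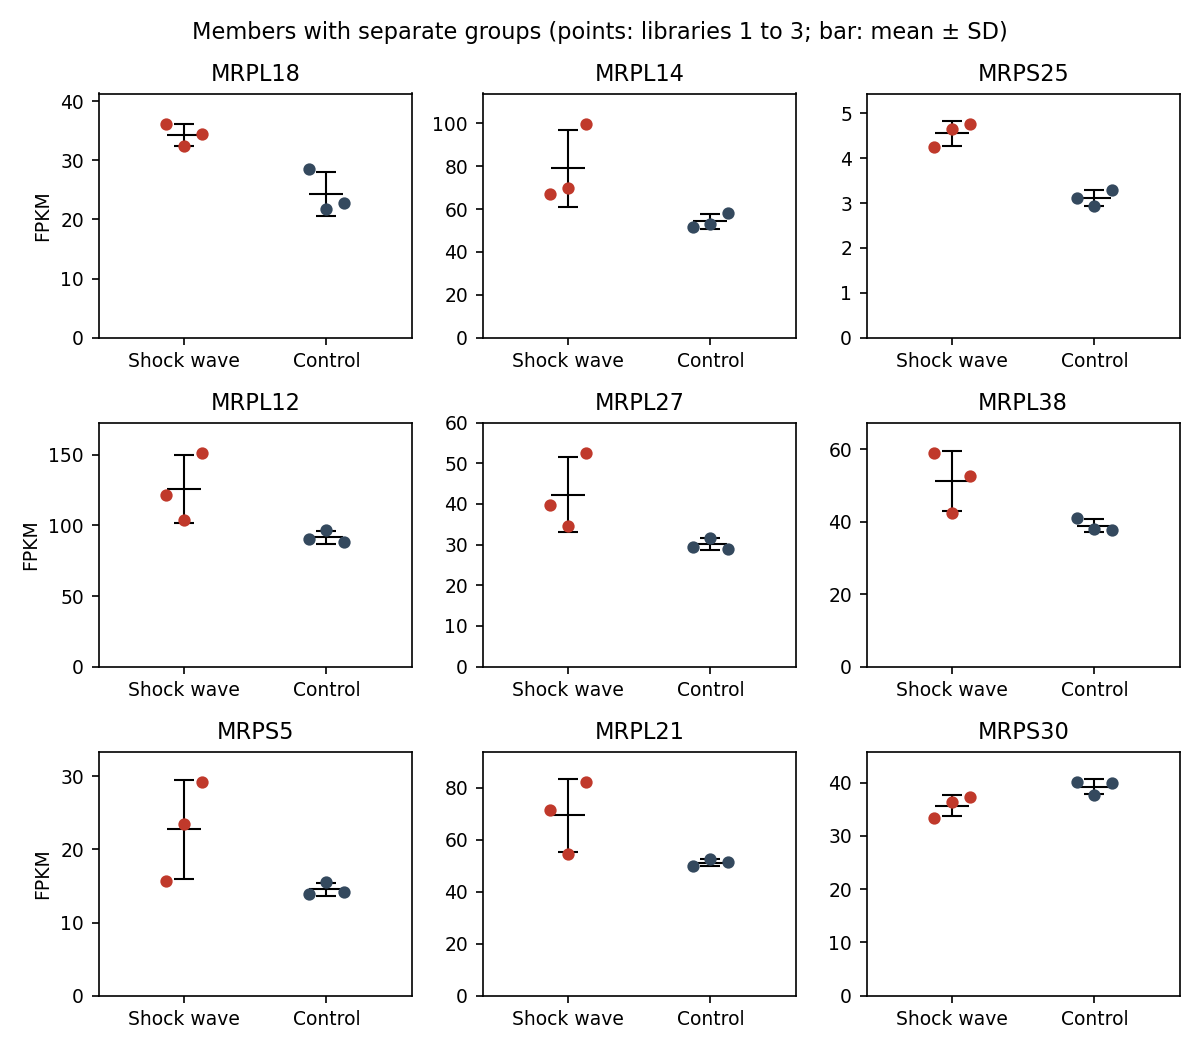
FPKM (y axis, from 0 in each panel) of the 9 genes with separate groups that are described in detail, by group (x axis); points are libraries 1 to 3 from left to right within a group, and bars give the mean ± SD (n = 3). In MRPL18 to MRPL21 all shock wave points lie above all control points, and in MRPS30 all lie below; for MRPS25 the direction is reversed on recovered reads.

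The other 11 genes with groups apart and shock wave higher were MRPL2, MRPL15, MRPL40, MRPL48, MRPL55, MRPS18A, MRPS11, MRPS12, MRPS17, MRPS18B and MRPS36. Their log2 changes ran from 0.16 for MRPS18B to 0.48 for MRPL48. MRPS36 had 14.5, 16.1 and 16.4 FPKM in shock wave tumours, against 12.9, 12.4 and 11.6 FPKM in control tumours, without overlap. The 3 paralogs of bacterial S18 have different places in the ribosome. MRPS18A of the large subunit had 45.4, 40.7 and 67.1 FPKM in shock wave tumours, against 40.7, 40.5 and 37.9 FPKM in control tumours. MRPS18B, a small subunit protein, had 47.5, 48.6 and 55.4 FPKM in shock wave tumours, against 44.8, 44.2 and 45.8 FPKM in control tumours. MRPS18C, which takes the place of S18 in the small subunit, had 14.6, 13.5 and 19.5 FPKM in shock wave tumours, against 13.6, 14.99 and 13.8 FPKM in control tumours. The groups were apart for MRPS18A and MRPS18B, by less than 0.1 FPKM between the nearest libraries of MRPS18A, and overlapped for MRPS18C. Over protein-coding transcripts only, the log2 change of MRPS18B was -0.14, against 0.16 over all its transcripts.

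Further large subunit proteins overlapped between the groups. MRPL3, the counterpart of bacterial L3, had 72.8, 81.2 and 54.8 FPKM in shock wave tumours, against 64.2, 54.0 and 71.0 FPKM in control tumours, and shock wave 3 was its lowest shock wave library. MRPL11, a protein of the stalk base where elongation factors bind, had 35.6, 25.0 and 39.7 FPKM in shock wave tumours, against 28.9, 26.9 and 33.0 FPKM in control tumours. At the exit of the growing peptide, MRPL23, MRPL24 and MRPL45 were compared. MRPL23 had 24.2, 28.5 and 24.6 FPKM in shock wave tumours, against 26.6, 29.7 and 24.8 FPKM in control tumours (log2 change -0.06 ± 0.13, SE). MRPL24 had 45.6, 34.5 and 57.3 FPKM in shock wave tumours, against 40.5, 40.6 and 31.7 FPKM in control tumours. MRPL45, which ties the ribosome to the inner membrane, had 65.8, 69.4 and 89.0 FPKM in shock wave tumours, against 65.2, 64.5 and 67.4 FPKM in control tumours. For MRPL24 and MRPL45 shock wave 3 was the highest library, and 1 of the other shock wave libraries fell within the range of the controls.

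MRPL44, which resembles ribonuclease III, had 25.9, 26.1 and 32.5 FPKM in shock wave tumours, against 23.9, 29.5 and 24.6 FPKM in control tumours. MRPL58 (also called ICT1), a peptidyl-tRNA hydrolase that can free stalled ribosomes, had 31.7, 28.3 and 38.9 FPKM in shock wave tumours, against 25.6, 29.99 and 25.4 FPKM in control tumours. In both, control 2 lay among the shock wave values. Their log2 changes were 0.11 ± 0.15 and 0.27 ± 0.16 (SE).

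In the small subunit the remaining genes of the panel had small log2 changes or overlapping groups. MRPS2 had 50.3, 41.6 and 54.4 FPKM in shock wave tumours, against 45.3, 36.9 and 44.4 FPKM in control tumours. MRPS7, which like MRPS2 has a bacterial counterpart of the same number, had 34.2, 31.3 and 35.6 FPKM in shock wave tumours, against 29.9, 35.4 and 31.1 FPKM in control tumours. The groups overlapped for both. MRPS22, specific to mitochondria, had 17.2, 18.5 and 22.7 FPKM in shock wave tumours, against 19.7, 18.3 and 15.5 FPKM in control tumours. MRPS34, also specific to mitochondria, had 26.0, 15.7 and 29.2 FPKM in shock wave tumours, against 16.6, 17.6 and 19.1 FPKM in control tumours. For MRPS34 shock wave 2 was the lowest of all 6 libraries and the other shock wave libraries were the highest.

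The log2 changes at both ends of the range rested on single libraries. MRPL49, a large subunit protein, had 51.4, 54.0 and 9.37 FPKM in shock wave tumours, against 49.6, 52.5 and 58.5 FPKM in control tumours, so that shock wave 3 alone was low. MRPS10, the counterpart of bacterial S10, had 28.3, 20.4 and 26.3 FPKM in shock wave tumours, against 20.3, 5.80 and 22.8 FPKM in control tumours, and control 2 alone was low. MRPL34 had 9.49, 22.7 and 29.6 FPKM in shock wave tumours, against 23.8, 20.4 and 28.6 FPKM in control tumours, with shock wave 1 low. MRPS35 split across the groups, with 42.2, 75.5 and 86.9 FPKM in shock wave tumours and 43.0, 87.8 and 75.8 FPKM in control tumours. These 4 genes were chosen after their values were seen, and the other 11 with groups apart are listed for completeness.

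The deposited values place whole reads on single transcripts, and which transcript led a gene often varied. Of the 78 genes, 8 had 1 transcript in the table, 55 had the same leading transcript in all 6 libraries, and 23 did not. Protein-coding transcripts held 88.6 to 91.8% of the members' FPKM. MRPL10, a stalk protein, was an example of a changing lead, with 27.8, 6.95 and 18.9 FPKM in shock wave tumours, against 13.6, 7.97 and 22.7 FPKM in control tumours. Its coding transcript ENST00000351111 had 27.03, 2.98 and 3.15 FPKM in shock wave tumours, against 11.98, 2.58 and 6.16 FPKM in control tumours. In shock wave 3 most of MRPL10 sat on ENST00000421763, a transcript annotated for nonsense-mediated decay, with 12.3 FPKM, and in control 3 on the coding ENST00000290208, with 15.7 FPKM. The groups overlapped for every one of these measures.

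Of 28517 transcripts tested with limma, 197 belonged to the 78 genes, and 0 of these 197 had an adjusted p under 0.05. The shares of all transcripts called were 0.0771% higher and 0.126% lower, or 58 transcripts in all. This number was 1 without control 1, 3 without control 3, 6 without control 2, 15 without shock wave 1 or 2 and 31 without shock wave 3. At an unadjusted p under 0.05, 8 of the 197 were higher (background 3.05%) and 3 lower (background 3.53%). The 8 became 19 without shock wave 2 (1252 of all 28517 transcripts) and 4 without control 1 (761 of all). The 3 became 0 without shock wave 2 (1549 of all), and 1 without control 2 (773 of all) or control 3 (749 of all). Groups were apart in 24 with shock wave higher (background 6.87%) and in 7 with shock wave lower (background 7.34%), and 138 of the 197 had a positive log2 change (background 48.5%). With a library left out, the 24 became 62 without shock wave 2 (4570 of all 28517 transcripts), 44 without control 2 (3279 of all) or control 3 (3266 of all), and 37 without shock wave 1 (3134 of all). The 7 became 18 without shock wave 3 (3029 of all) and 12 to 14 without any other library. The smallest adjusted p, 0.448 in limma, belonged to ENST00000478464, a coding transcript of MRPS22. It had 7.06, 8.16 and 8.04 FPKM in shock wave tumours, against 0.108, 2.57 and 1.75 FPKM in control tumours. The groups were far apart for this transcript although they overlapped for MRPS22 as a whole, of which it made up 39.8% in shock wave tumours and 8.28% in control tumours. In MRPL49 the decay-annotated ENST00000526319 had 2.53, 17.2 and 1.84 FPKM in shock wave tumours, against 0.0302, 0 and 0 FPKM in control tumours. That transcript reached 1 FPKM in shock wave libraries only, so passing the filter already set its groups apart. MRPL49 as a whole overlapped between the groups.

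**Figure D4:**
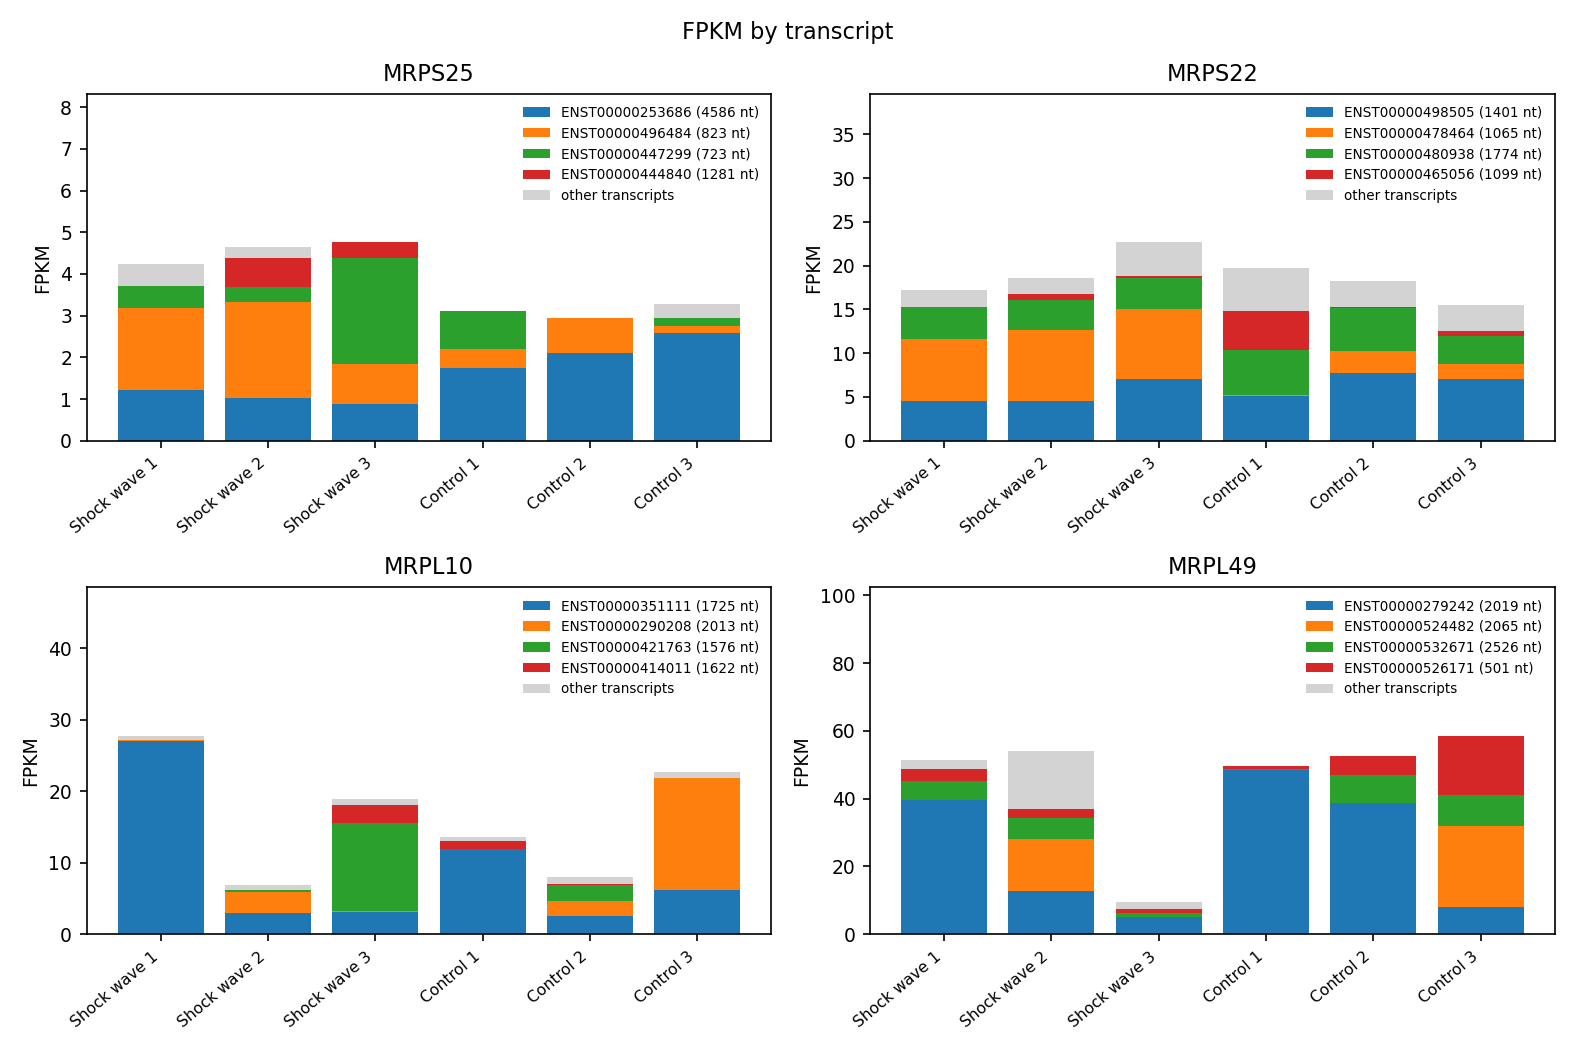
FPKM (y axis) by library (x axis) for MRPS25, MRPS22, MRPL10 and MRPL49, stacked by transcript; the 4 transcripts with the highest mean are coloured, with their length in bases (nt), and the rest are grey. In MRPS25 the 4586-base transcript is lower in all shock wave libraries, and in MRPL49 shock wave 3 alone is low, at 9.37 FPKM.

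Pseudogenes of the family took few reads. The 19 of them summed to 3.47 to 5.44 FPKM per library, and 1, MRPL45P2, reached 1 FPKM in 3 libraries, with 0.302 to 3.06 FPKM. Reads that fit a gene and its pseudogene equally may have been placed on either, so genes with such copies, MRPL45 among them, are less certain. The strand setting of the counting is not given in the sources used here, so reads from MRPL23 and MRPS30 cannot be told apart from those of their antisense or divergent partners where these overlap.

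Proteins of the mitochondrial ribosome with other symbols gave 3 positive log2 changes of 5, with a median of 0.34, and 0 called by limma. GADD45GIP1, a large subunit protein, had 36.2, 27.9 and 44.3 FPKM in shock wave tumours, against 23.4, 23.4 and 26.98 FPKM in control tumours. CHCHD1, of the small subunit, had 55.7, 46.5 and 82.6 FPKM in shock wave tumours, against 38.0, 43.1 and 41.0 FPKM in control tumours. In both, and in AURKAIP1 (log2 change 0.34), all shock wave libraries lay above the controls. Groups were thus apart with shock wave higher in 3 of 5, against 7.75% of all genes tested. DAP3 and PTCD3, also of the small subunit, had log2 changes of -0.19 and -0.14 with overlapping groups.

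The rest of the mitochondrial translation machinery was examined in the same fit, and limma called 0 genes in each of these lists. Their transcripts were longer than those of the members. Median lengths were 2125 bases for assembly factors, 2021 for translation factors and 2347 for aminoacyl-tRNA synthetases. Factors of ribosome assembly and ribosomal RNA modification had 19 of 26 positive log2 changes with a median of 0.11. NSUN4, a methyltransferase needed for joining the subunits, had 1.98, 1.84 and 1.46 FPKM in shock wave tumours, against 5.80, 4.52 and 2.94 FPKM in control tumours. It was lower in all shock wave libraries, with a log2 change of -0.94 (limma p 0.00607, adjusted p 0.648). Its levels were low, and over the processing alternatives the log2 change ran from -1.45 to -0.41. MRM1, which methylates the large ribosomal RNA, had 9.39, 6.98 and 11.2 FPKM in shock wave tumours, against 7.37, 4.79 and 6.33 FPKM in control tumours, with overlap.

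Translation factors had 10 of 16 positive log2 changes with a median of 0.16. TUFM, the mitochondrial elongation factor Tu, had 197, 183 and 190 FPKM in shock wave tumours, against 168, 156 and 178 FPKM in control tumours. TACO1, an activator of COX1 translation, had 18.8, 14.6 and 21.2 FPKM in shock wave tumours, against 13.8, 12.7 and 14.4 FPKM in control tumours. Both had groups apart with shock wave higher, as had 3 of the 16 in all (background 7.75%). Mitochondrial aminoacyl-tRNA synthetases had 6 of 17 positive log2 changes with a median of -0.02. YARS2, which charges tyrosine, had 10.1, 3.54 and 18.6 FPKM in shock wave tumours, against 4.57, 1.24 and 4.97 FPKM in control tumours. EARS2, which charges glutamate, had 13.5, 15.6 and 8.24 FPKM in shock wave tumours, against 17.2, 14.0 and 17.6 FPKM in control tumours. The groups overlapped in both.

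Genes of mitochondrial DNA transcription and maintenance (median length 2020 bases) had 5 of 9 positive log2 changes with a median of 0.02. SSBP1, the single-strand DNA-binding protein, had a log2 change of 0.43 with overlapping groups, and TFB2M, a transcription factor of mitochondrial DNA, one of 0.24 with groups apart. Transcription factors of nuclear genes for mitochondrial proteins (median length 2537 bases) had 1 of 7 positive log2 changes with a median of -0.29. PPARGC1A and PPARGC1B were too low to be tested. ESRRA, the 1 positive, had 49.6, 52.1 and 59.8 FPKM in shock wave tumours, against 13.2, 54.2 and 40.4 FPKM in control tumours, with control 1 low. YY1 had 32.7, 32.9 and 27.5 FPKM in shock wave tumours, against 39.8, 33.5 and 35.6 FPKM in control tumours. Its groups did not overlap, at a log2 change of -0.22 (limma adjusted p 0.648), and the log2 change was 0.01 with the length trend removed.

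The products of mitochondrial DNA had log2 changes in both directions. Of 13 mitochondrially encoded proteins 10 were tested, 3 had a positive log2 change and the median was -0.05. MT-CO3, MT-ATP6 and MT-ATP8 did not pass the filter. MT-ATP8 had 3302 FPKM in shock wave 1 and at most 0.2001 FPKM in any other library. MT-CO3 had 105.1 FPKM in shock wave 2 and at most 0.4156 FPKM in any other, and MT-ATP6 had 0.2117 to 0.301 FPKM. The reason was not tested, and the placement of reads on mitochondrial genes is thus uncertain. MT-ND4L, a complex I subunit, had 2600, 3035 and 999 FPKM in shock wave tumours, against 2915, 3780 and 2957 FPKM in control tumours, with shock wave 3 low. MT-ND6, another complex I subunit, had 1991, 2004 and 1923 FPKM in shock wave tumours, against 1445, 1735 and 1807 FPKM in control tumours, without overlap. The ribosomal RNA of the small subunit, MT-RNR1, had 1395, 1298 and 2143 FPKM in shock wave tumours, against 1260, 1214 and 1321 FPKM in control tumours. That of the large subunit, MT-RNR2, had 4869, 5173 and 6448 FPKM in shock wave tumours, against 5534, 5251 and 5550 FPKM in control tumours. Both overlapped, and their values depend on how much ribosomal RNA the library preparation kept.

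Positive log2 changes also prevailed in the gene families compared with the mitochondrial ribosome. Cytosolic ribosomal proteins had 71 of 77 positive log2 changes with a median of 0.32, and 8 (10.4%) had groups apart with shock wave higher, against 7.75% of all genes tested. Nuclear-encoded subunits of complex I had 34 of 37 with a median of 0.33, and 13 had groups apart with shock wave higher, against the same 7.75%. The median cytosolic ribosomal protein stood at 0.18, -0.04 and 0.84 above its control mean (log2) in shock wave 1, 2 and 3, and the median complex I subunit at 0.20, 0.10 and 0.69. For the mitochondrial ribosome these were 0.23, 0.06 and 0.45, so the same library, shock wave 3, was highest in all 3 families. Median transcript length was 881 bases for cytosolic ribosomal proteins, 844 for complex I subunits and 1276 for the mitochondrial ribosome. It was 2347 bases for the aminoacyl-tRNA synthetases and 999 for the mitochondrially encoded proteins tested. Neither the difference between the families nor the part of length in it was tested.

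**Figure D5:**
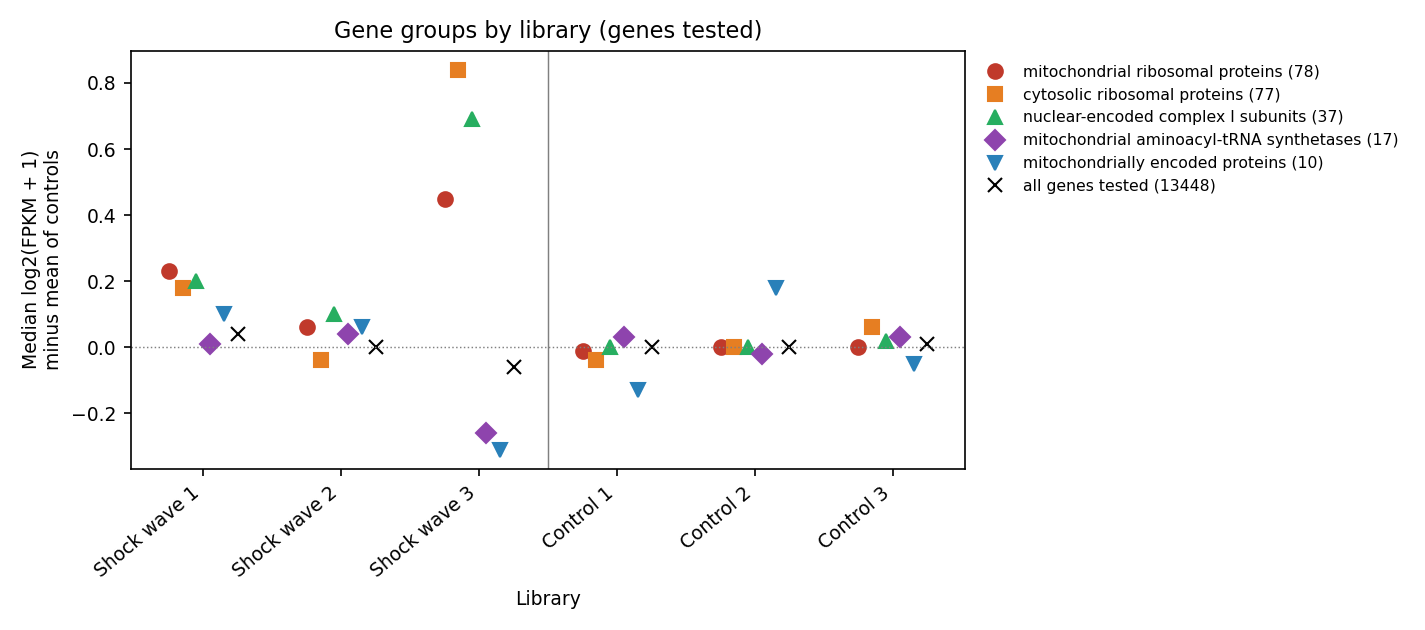
Median over genes of log2(FPKM + 1) minus the mean of the controls (y axis) for each library (x axis), shock wave libraries left of the line and control libraries right of it; each symbol is a gene group, with the number of genes tested in the legend. In shock wave 3 the mitochondrial ribosomal proteins stand at 0.45, the cytosolic ribosomal proteins at 0.84 and the complex I subunits at 0.69. The aminoacyl-tRNA synthetases stand at -0.26 and the mitochondrially encoded proteins at -0.31, and the groups differ in transcript length.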

How the data were processed

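RNA was measured in 6 HT-29 xenograft libraries, grouped by the treatment label; the titles of the shock wave samples carry both ESV and con, while their treatment label and table columns read ESV. Per the labels' protocols, RNA was taken with Trizol and libraries with a SMARTER mRNA kit. The authors deposited 1 table of 131516 transcript rows on the hg38 build, per the submitters' processing notes. Its unit is not named there. The deposited values were taken as FPKM, since multiplying by GENCODE 29 transcript length gave whole reads (within 0.05) for 99.64 to 99.7% of low values. No source used here gives the aligner, the counting program or any removal of host reads. The 15031 assembled rows without a gene were left out.

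FPKM were summed per symbol. Genes at 1 FPKM or more in at least 3 of 6 libraries (13448) were tested as log2(FPKM + 1) by limma 3.58.1 (R 4.3.3) using its mean-variance trend, Benjamini-Hochberg adjustment over all of them and a threshold of 0.05. Log2 changes understate those of low genes. On recovered reads of 14626 genes, limma voom called 0 higher and 2 lower. No 2 libraries held identical values, and 0 sample columns were unused.

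Named genes were a panel of 20, up to 8 per direction with groups apart by smallest p, the 5 highest and 3 lowest by level, and 2 of each pathway list. The members and lists were chosen with earlier results of these data known. Alternatives changed the variance model, normalization, filter, pseudocount, block, libraries, length or GC trend, and the transcripts summed.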

Additional observations from a re-analysis of the deposited data

How the results depend on the processing

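No member was called in any of the 18 alternatives, and the smallest adjusted p among named genes was 0.299 (limma). Members with a positive log2 change numbered 61 to 72, and their median was 0.13 to 0.37, always above that of all genes tested, by 0.12 to 0.38. Of 47 named genes, 10 reversed in at least 1 alternative, and MT-RNR2, at 0.00, ran from -0.12 to 0.09. The count of members higher at an unadjusted p under 0.05 was 11 in limma (3.17% of all genes tested). It was 7 without the variance trend (2.94% of all), 7 with quantile normalization (3.67%) and 7 with upper-quartile scaling (2.78%). It was 3 with libraries scaled to the same sum (1.48%), 7 with a replicate block (3.34%) and 4 with voom on recovered reads (2.32%). With the length trend removed it was 2 of 78, near the 2.31% of all genes tested. With a library left out it ran from 1 to 23, against 2.01 to 6.74% of all genes tested. Members apart and higher were 19 (7.75% of all genes tested). They became 16 with quantile normalization (8.36%), 15 with upper-quartile scaling (6.83%) and 12 with the same sum (4.42%). They were 11 with the length trend removed (6.7%) and 13 of 77 over coding transcripts only (7.67%). They were 22 with the GC trend removed (8.42%) and 22 with voom (7.64%). With a library left out they were 21 to 47, against 11.5 to 18.6% of all genes tested. Members apart and lower, 1, became 0 with upper-quartile scaling (1288 of all 13448 genes tested). They were also 0 with the length trend removed (848 of 13437) and with the GC trend removed (1161 of 13437). They were 2 with the same sum (1522 of 13448) and with voom (1214 of 14626). With a library left out they were 1 to 2, against 1483 to 2597 of 13448. The cause of these moves was not tested. Log2 changes reversed as follows. MRPL10 ran from -0.21 to 0.72 with a library left out (-0.21 without shock wave 1, -0.16 without control 2) and was -0.14 over coding transcripts, where MRPL11 was -0.06, MRPS18B -0.14 and MRPS25 -0.38; MRPS25 was -0.46 with voom. MRPS18C ran from -0.01 (without shock wave 3) to 0.24. MRPS7 was -0.04 with the same sum, -0.04 with the length trend removed and -0.02 with voom. MRPS16 was -0.04 with the same sum, -0.10 (without control 2) to 0.21 with a library left out, -0.05 without shock wave 3, and -0.07 with the length trend removed, where MRPS22 was -0.01, MRPL13 -0.02 and YY1 0.01. The alternative of coding transcripts only was chosen after seeing the data. Replicate numbers did not pair the samples: same-numbered libraries had deviations correlated at -0.012, -0.006 and 0.028, and the replicate block changed no other count of member genes. For member transcripts at an unadjusted p under 0.05 the block gave 4 higher (830 of all 28517 transcripts) and 2 lower (909 of all). The block left 0 of all transcripts called.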
